A study of Mus musculus with 2 samples.

Results

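Genes of the bone morphogenetic protein (BMP) pathway were followed through single-cell RNA profiles of mouse liver endothelium. They were taken by gene name from both count tables, 9 of 31057 genes, and all 9 were present. They comprised the ligand genes Bmp2 and Bmp6, the receptor genes Eng and Acvrl1, the inhibitory Smad genes Smad6 and Smad7, and the target genes Id1, Id2 and Id3. Both groups were C57BL/6 mice of 16 weeks carrying Cdh5-Cre and mTmG +/+, a reporter that turns from tomato to membrane GFP in cells that have expressed Cre from the endothelial Cdh5 promoter. The cirrhosis group had inhaled vaporized carbon tetrachloride (CCl4), a hepatotoxin, for 12 weeks, and the labels name no exposure for the control group. Live GFP-positive cells of the non-parenchymal fraction, pooled from 3 mice per group, made 1 droplet library per group. With no replicate library, no test between groups was possible, and every interval given here covers counting error only.

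BMP ligands bind pairs of type I and type II receptors, which phosphorylate SMAD1, SMAD5 and SMAD9, and these enter the nucleus with SMAD4. In the liver, sinusoidal endothelial cells are a main source of BMP2 and BMP6, which act on hepatocytes to induce hepcidin, the hormone that limits iron export. The endothelium itself responds to circulating BMP9 and BMP10 through ALK1, the product of Acvrl1, with endoglin, the product of Eng, as co-receptor. SMAD6 and SMAD7 are induced by the pathway and dampen it, and the ID proteins are induced targets that hold E proteins away from DNA.

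The control library had 5642 barcodes with a median of 6864.5 unique molecular identifiers (UMIs), and the cirrhosis library had 8327 with a median of 8537. The libraries shared 17 cell barcode sequences. After filters, 4953 control and 7191 cirrhosis cells remained, of which 2890 and 3104 were liver sinusoidal endothelial cell-like (LSEC-like). These were divided into pericentral (249 and 530 cells), intermediate (2134 and 2182) and periportal (507 and 392) cells, beside 102 and 241 large-vessel endothelial-like cells. Pericentral cells came from 2 clusters of unlike makeup. Cluster 7 (223 control and 121 cirrhosis cells) was led by Rspo3, and its pericentral markers stood at a log2 fold of 1.19 over the mean of the other endothelial clusters and its LSEC markers at -0.17. Cluster 6 (26 and 409 cells), led by Nts, Tgfb2, Ltbp1, Kcnh1 and Wnt9b, was placed there by its pericentral markers (1.07), while its large-vessel markers stood at 0.82 and its LSEC markers at -1.53, which goes against a sinusoidal name. It is called cluster 6 here, the class values hold it as clustered, and the main LSEC-like ratios and zone results are also given without it. Shares of cells or UMIs, correlations across cells, immediate-early ranges and large-vessel over LSEC-like folds were not read without it. All 13 LSEC markers present in the tables were above 20 CPM (a gene's counts scaled to a common library total) in LSEC-like cells of both libraries, and none of 11 T or NK cell markers was. The sum of the LSEC markers was 3.17% of counts in control and 2.14% in cirrhosis LSEC-like cells. Immediate-early genes made up 1.69% and 0.485%, and Alb, a hepatocyte transcript, stood at 109.7 and 177 CPM.

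On GRCm38 in the GENCODE M21 annotation, Bmp2 lies on chromosome 2 (133552159 to 133562885), Bmp6 on 13 (38345107 to 38500302), Eng on 2 (32646595 to 32682669), Acvrl1 on 15 (101128522 to 101145336) and Smad6 on 9 (63953076 to 64022059). Smad7 lies on 18 (75367529 to 75395935), Id1 on 2 (152736251 to 152737410), Id2 on 12 (25093799 to 25097140) and Id3 on 4 (136143497 to 136145755). Smad6 and Id2 are on the minus strand and the others on the plus strand. Bmp6 overlaps Txndc5 on the opposite strand by 224 bases and Eng overlaps Fpgs by 61 bases at the 3' ends, where this chemistry reads. Within Bmp6 and Acvrl1 also lie the antisense genes 4930579J19Rik and Gm16031. Whether counting used the strand is not given in the sources used here, so reads from these overlaps cannot be assigned by strand with certainty.

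RefSeq promoter windows (GRCm38.p6, 250 bases before to 50 after the start) were read for 5 of the 9 genes. These were Bmp6, Eng, Smad6, Id2 and Id3. Windows of Bmp2, Acvrl1, Smad7 and Id1 were not read, so the motif counts do not cover those genes. Printed are Bmp6 and Eng, a ligand and a receptor gene that were lower together in each endothelial class, and Id2 and Id3, target genes whose ratios differed. Capitals mark GGCGCC, the core of a BMP response element, which is its own reverse complement, and CAGAC, a SMAD-binding element, on either strand (as GTCTG on the other).
Bmp6 (chr13:38345466-38345765, plus strand): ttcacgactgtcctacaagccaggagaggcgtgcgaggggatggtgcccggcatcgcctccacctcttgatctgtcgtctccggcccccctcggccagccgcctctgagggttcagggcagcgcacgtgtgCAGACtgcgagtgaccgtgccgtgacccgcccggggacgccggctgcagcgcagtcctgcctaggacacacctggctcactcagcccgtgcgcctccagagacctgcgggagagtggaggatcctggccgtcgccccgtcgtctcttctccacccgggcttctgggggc
Eng (chr2:32646345-32646644, plus strand): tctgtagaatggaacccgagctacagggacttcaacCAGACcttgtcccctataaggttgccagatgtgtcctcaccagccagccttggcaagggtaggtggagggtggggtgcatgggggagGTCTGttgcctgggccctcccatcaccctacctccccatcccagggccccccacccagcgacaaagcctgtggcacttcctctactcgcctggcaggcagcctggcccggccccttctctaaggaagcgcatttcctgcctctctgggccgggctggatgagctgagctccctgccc
Id2 (chr12:25096043-25096342, minus strand): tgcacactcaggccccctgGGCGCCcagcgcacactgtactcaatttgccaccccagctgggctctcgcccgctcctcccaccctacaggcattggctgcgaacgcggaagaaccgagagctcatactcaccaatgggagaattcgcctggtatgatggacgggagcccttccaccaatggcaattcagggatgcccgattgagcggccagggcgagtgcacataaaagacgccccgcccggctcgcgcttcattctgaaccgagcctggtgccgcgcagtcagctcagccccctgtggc
Id3 (chr4:136143572-136143871, plus strand): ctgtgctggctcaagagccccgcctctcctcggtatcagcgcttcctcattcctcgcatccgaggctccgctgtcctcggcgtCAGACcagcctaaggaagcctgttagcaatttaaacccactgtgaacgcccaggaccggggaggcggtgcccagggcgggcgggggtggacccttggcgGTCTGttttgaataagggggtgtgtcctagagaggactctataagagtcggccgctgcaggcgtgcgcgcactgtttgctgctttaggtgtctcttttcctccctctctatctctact
GGCGCC occurred 1 time in the Id2 window and in none of the other 4, against 11.9% of the 32851 windows in the table. CAGAC occurred in the Bmp6, Eng and Id3 windows, against 49.6% of all windows, and in Eng and Id3 on both strands. A match shows only that these letters are present.

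In LSEC-like cells, 1 of the 9 genes was at least 1.5-fold higher in cirrhosis (Id1), against 5.14% of 6904 genes measured at a mean of 20 CPM or more. At least 1.5-fold lower were 3 (Bmp2, Bmp6 and Id2), against 5.74%. Eng, at 1.49-fold lower, lay just outside that line. The median log2 ratio of the 9 was -0.32, and that of all genes was -0.03. Without cluster 6 the counts were the same, with log2 ratios of -0.65 for Bmp2, -0.69 for Bmp6, -0.50 for Eng, -0.84 for Id2 and 0.66 for Id1. The ligands and the co-receptor were thus on the lower side, the target genes were divided, and Smad7 had the ratio nearest 0.

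The measured levels of the ligand genes were lower in cirrhosis in each endothelial class. Bmp2 stood at 2300.0 CPM in control and 1305 CPM in cirrhosis LSEC-like cells, a log2 ratio of -0.82 (95% interval -0.84 to -0.80). By zone, Bmp2 was 2008 against 569 CPM in pericentral cells, 2459 against 1564 in intermediate cells and 1758 against 1199.6 in periportal cells. The cirrhosis level was lower in all 3 zones. The pericentral gap of 3.53-fold set cells mostly of cluster 7 in control against cells mostly of cluster 6 in cirrhosis, and within the clusters it was 2.46-fold in cluster 7 and 1.24-fold in cluster 6. The intermediate and periportal gaps were 1.57-fold and 1.47-fold. Large-vessel cells carried less Bmp2 than LSEC-like cells in both libraries, at 964 and 461 CPM.

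Bmp6, the second ligand in iron control, stood at 149 CPM in control and 87.3 CPM in cirrhosis LSEC-like cells (log2 ratio -0.77, -0.84 to -0.70). Its log2 ratios were -0.64 in pericentral (-0.62 in cluster 7 alone), -0.73 in intermediate and -0.58 in periportal cells, and their intervals overlapped, unlike those of Bmp2. In large-vessel cells Bmp6 was 53.6 CPM in control and 29.4 CPM in cirrhosis. Beside both ligands, the summed LSEC markers were also lower in cirrhosis. In LSEC-like cells 8 of the 13 were at least 1.5-fold lower (5.74% of all genes), with a median log2 ratio of -0.70. In pericentral cells 12 of the 13 were so (12.0% of all genes), with a median of -1.41. The pericentral figure carries the shift from cluster 7 to cluster 6, whose LSEC markers made up 1.35% of counts in control and 1.24% in cirrhosis, against 2.84% and 1.8% in cluster 7. In large-vessel cells 10 of the 13 LSEC markers were at least 1.5-fold lower (9.24% of all genes), with a median log2 ratio of -0.96. The part of this wider difference of the LSEC markers in the ligand values was not tested. Nor was the part of LSEC transcripts carried into large-vessel cells.

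Of the receptor genes, Eng was lower and Acvrl1 was not. Eng stood at 2420.0 CPM in control and 1626 CPM in cirrhosis LSEC-like cells (log2 ratio -0.57, -0.59 to -0.56). In pericentral cells the levels were 2779.9 and 1273 CPM, a 2.18-fold gap (1.83-fold in cluster 7 alone), whereas they were 2479 and 1779.6 in intermediate and 1963 and 1411 in periportal cells. Acvrl1, the type I receptor that pairs with endoglin, was 47.9 CPM in control and 58.8 CPM in cirrhosis LSEC-like cells (log2 ratio 0.30, 0.19 to 0.41). Periportal cells had 58.6 and 82.7 CPM, intermediate cells 46.2 and 51.1 CPM and pericentral cells 42.4 and 69.3 CPM. Within the pericentral clusters Acvrl1 was 37.7 and 50.6 CPM in cluster 7 (log2 ratio 0.42, -0.08 to 0.93). In cluster 6 it was 74.4 and 74.0 CPM (-0.01, -0.67 to 0.74). Both intervals included no difference and also the pericentral log2 ratio of 0.71, so they cannot show whether that gap held within the clusters. In large-vessel cells the Acvrl1 interval included no difference, at 118 and 145 CPM.

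The inhibitory Smad genes were past 1.5-fold in none of the 3 zones. Smad6, which blocks BMP receptors, was 251 CPM in control and 201 CPM in cirrhosis LSEC-like cells (log2 ratio -0.32, -0.37 to -0.26), and the ratios of the 3 zones lay between -0.32 and -0.34. Smad7, which blocks BMP and TGF-beta receptors alike, was 309 and 290.3 CPM (log2 ratio -0.09, -0.14 to -0.04), and its pericentral interval included 0. Large-vessel cells showed a wider gap in Smad6, at 281 against 159.6 CPM.

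The target genes differed in direction. Id1, a direct target of BMP receptor signalling in many cells, was 191 CPM in control and 366 CPM in cirrhosis LSEC-like cells (log2 ratio 0.94, 0.89 to 0.99). Pericentral cells had 265 and 646 CPM, intermediate cells 169 and 273 CPM, and periportal cells 247 and 373 CPM. Every zone was thus higher in cirrhosis, from 1.51-fold to 2.44-fold, with 1.84-fold in pericentral cluster 7 alone, while large-vessel cells, at 705 and 684 CPM, did not differ beyond counting error.

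Id2, an ID protein gene also needed in natural killer and innate lymphoid cells, was 348 CPM in control and 205 CPM in cirrhosis LSEC-like cells (log2 ratio -0.76, -0.81 to -0.71). It was lower in all 4 endothelial classes, most in large-vessel cells, where 704 CPM in control stood against 236 CPM in cirrhosis. Id3 was 1444 and 1280.1 CPM in LSEC-like cells (log2 ratio -0.17, -0.19 to -0.15), with 2088 and 1417 CPM in pericentral cells (2024 and 1494 in cluster 7 alone). Of the UMIs of the 3 Id genes in LSEC-like cells, Id1 made up 9.63% in control (exact 95% interval 9.35% to 9.91%) and 19.8% in cirrhosis (19.4% to 20.1%), and Id2 made up 17.5% and 11.1%.

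The first clustering step separated LSEC-like cells largely by library. Control cells lay mainly in first-step clusters 1 (1683 cells, against 9 in cirrhosis) and 3 (1078, against 80), and cirrhosis cells in cluster 0 (2437, against 113 in control). Within cluster 0, Id1 was 249 CPM in control and 292 CPM in cirrhosis, and within cluster 3 it was 121 and 111 CPM with intervals that overlapped. Bmp2 was 1729 and 1499 CPM in cluster 0 and 2289 and 1962 CPM in cluster 3. Id1 was among the genes that formed the first-step clusters, so its values within them describe cells already sorted in part by Id1, and Bmp2 was not. The second step, which scaled each library by itself, mixed the libraries better. In each of the 5 intermediate clusters, and in the periportal cluster, Id1 was higher and Bmp2 lower in cirrhosis.

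Endothelial cells that also held transcripts of other types were kept out of the LSEC-like class. In control these were mainly 534 cells (10.8% of those retained) mixed with hepatocyte transcripts, with Bmp2 at 1715 CPM and Id1 at 167 CPM. In cirrhosis they were mainly 395 cells (5.49%), with Bmp2 at 1037 CPM and Id1 at 360 CPM. A further cluster mixed with macrophage transcripts had 251 control and 257 cirrhosis cells, 5.07% and 3.57%. There Id1 was 133 and 258 CPM (log2 ratio 0.96, 0.73 to 1.19), whereas Bmp2 was 1570.2 and 1363 CPM and Eng 1604 and 1494 CPM. In this macrophage-mixed cluster Id1 thus differed by about as much as in LSEC-like cells, and Bmp2 and Eng by less. Its macrophage markers made up 1.05% of counts in control and 0.33% in cirrhosis and its LSEC markers 2.13% and 2.04%, and their part in these values was not tested.

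**Figure D1:**
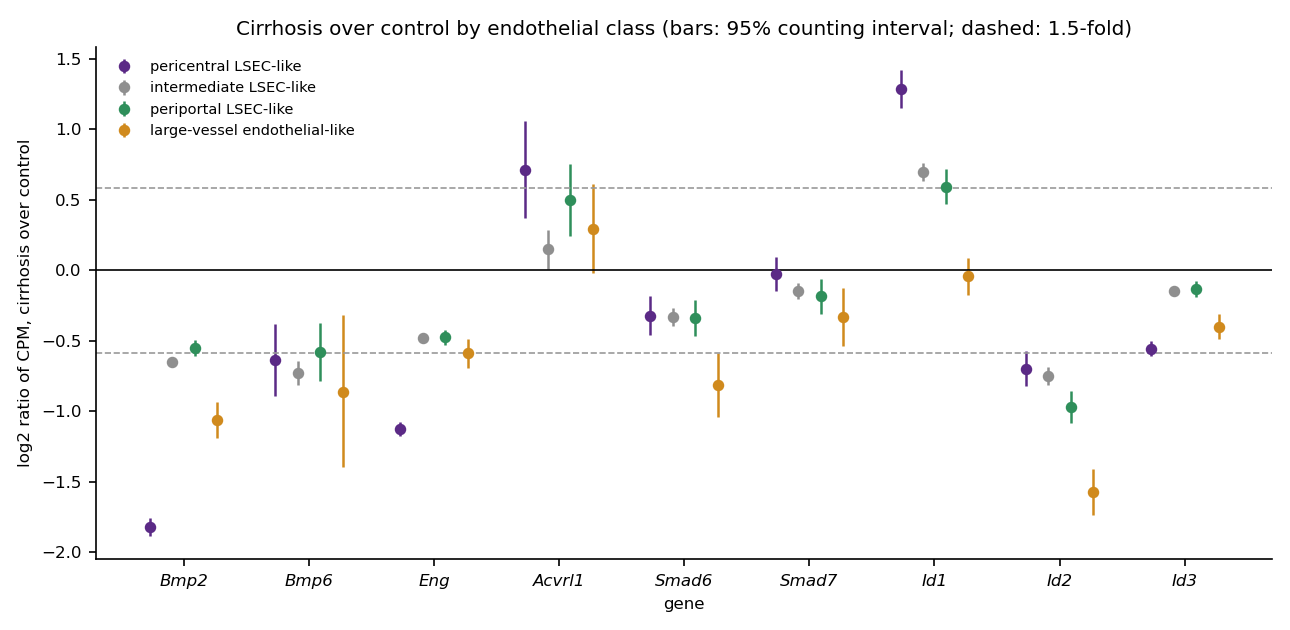
Log2 ratio of CPM, cirrhosis over control, for each gene (horizontal axis) in 4 endothelial classes; points are the 2 libraries' ratio, bars the exact 95% counting interval, dashed lines 1.5-fold. Bmp2 at -1.82 and Id1 at 1.28 in pericentral cells, which are mostly cluster 6 in cirrhosis and cluster 7 in control, lie farthest from 0 among the LSEC-like zones, and Id2 at -1.58 does among large-vessel values.

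Past the 1.5-fold line, pericentral cells had 2 of the 9 genes higher (Acvrl1 and Id1), against 9.93% of all genes, and 4 lower (Bmp2, Bmp6, Eng and Id2), against 12.0%. In cluster 7 alone Acvrl1, at 1.34-fold, did not reach the line and the other 5 were past it. Intermediate cells had 1 higher (4.2% of all genes) and 3 lower (4.98%), and periportal cells had 1 higher (4.46%) and 1 lower (5.28%). Large-vessel cells had none of the 9 higher (6.28%) and 5 lower (9.24%): Bmp2, Bmp6, Eng, Smad6 and Id2. There 10 of the 13 LSEC markers were past the line on the lower side as well. How far LSEC transcripts carried into these cells set the large-vessel values of Bmp2, Bmp6 and Eng was not tested. Id1 in periportal cells, at 1.51-fold, and Eng in large-vessel cells, at 1.51-fold, lay just inside the line, and Bmp6 in periportal cells, at 1.49-fold, just outside.

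The order of the zones differed between the libraries for some genes. In control, Bmp2 was 1.14-fold higher in pericentral than in periportal cells, and in cirrhosis it was 2.11-fold lower, a difference of the log2 ratios of -1.27 (-1.35 to -1.18). Eng went from 1.42-fold higher in pericentral cells to 1.11-fold lower, a difference of -0.65 (-0.72 to -0.58). The reversal of Eng rests on cluster 6: with cluster 7 alone, cirrhosis Eng was 1551 CPM in pericentral and 1411 CPM in periportal cells (log2 ratio 0.14, 0.06 to 0.21), higher at the central side in both libraries. Bmp2 with cluster 7 alone was still lower at the central side in cirrhosis, at 903 against 1199.6 CPM (log2 ratio -0.41, -0.50 to -0.32), and higher there in control (0.33, 0.28 to 0.39). Neither gene took part in clustering.

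The target genes had other patterns. Id1 was nearly even across zones in control, at a log2 pericentral over periportal ratio of 0.10, and was 0.79 in cirrhosis, a difference of 0.69 (0.52 to 0.87), which was 0.29 with cluster 7 alone. Id3 went the other way, from 0.53 to 0.11 (difference -0.42, -0.50 to -0.35). Id2 went from -0.29 to -0.02 (difference 0.27, 0.10 to 0.44). Bmp6 kept a lower level at the central side in both, at -0.48 and -0.54, and the intervals of the difference included 0 for Bmp6, Acvrl1, Smad6 and Smad7. Id1, Id2, Id3, Smad6 and Smad7 were among the genes that formed the second-step clusters, so their zone values describe those clusters. Of the 9 genes, none was 1.5-fold apart between these zones in control (5.94% of all genes were higher and 4.53% lower), and Bmp2 and Id1 were in cirrhosis (7.3% higher and 7.64% lower). Both of those calls ended with cluster 7 alone, where Acvrl1 was at least 1.5-fold lower at the central side in each library, and at a higher second-step resolution, which gave 0 in cirrhosis and 2 in control. Ordering cells by zone markers gave 3 in cirrhosis and, without cluster 6, 0.

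The 2 pericentral clusters were also read apart. Within cluster 7, Bmp2 was 2217 CPM in control and 903 CPM in cirrhosis, Eng was 2834 and 1551 CPM, and Id1 was 237 and 437 CPM. Within cluster 6, Bmp2 was 599 CPM in control and 484 CPM in cirrhosis, Eng was 2415 and 1203 CPM, and Id1 was 458 and 699 CPM. Each of these 3 genes had the same direction in both clusters, and the Bmp2 gap was wide in cluster 7 and narrow in cluster 6. Bmp6 was 103 and 67.2 CPM in cluster 7, and 27.4 and 58.2 CPM in cluster 6, where only 26 control cells stood behind the value. With cluster 7 alone, the cirrhosis minus control difference of the log2 zone ratios was -0.745 for Bmp2, -0.39 for Eng and 0.29 for Id1, smaller than with both clusters, and that of Id2 turned to -0.05.

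A second view of the zones used no cluster borders within the LSEC-like cells, although the LSEC-like cells themselves had been chosen by clustering. LSEC-like cells of each library were ordered by the mean level of pericentral less periportal markers, none of which is one of the 9 genes, and divided into 5 groups of equal size. In control, Bmp2 ran 1864, 2221, 2402, 2562 and 2355 CPM from the portal to the central side. In cirrhosis it ran 1414, 1602, 1579.7, 1279 and 772 CPM. The log2 ratio was -0.40 in the first and -1.61 in the last group. Cells of cluster 6 made up 47.3% of the last group in cirrhosis and 3.81% in control. With them left out and the cells divided again, cirrhosis Bmp2 ran 1356, 1618, 1638, 1473 and 1290 CPM, and the log2 ratio went from -0.46 to -0.92. The profiles thus still separated toward the end with the highest pericentral marker level, by less. Id1 ran 202, 191, 158, 186 and 221 CPM in control and 309.6, 272, 281, 351 and 569 CPM in cirrhosis, and its cirrhosis level at the central end was 356 CPM without cluster 6, against 314 CPM at the portal end. Eng ran from 2087 up to 2765 CPM in control, and from 1623 through 1773 in the middle to 1441 CPM in cirrhosis, where the last group without cluster 6 was 1697 CPM. Bmp6 was lowest at the central end in both, at 126 and 65.4 CPM. In this view the difference of the end-to-end log2 ratios of Bmp6 was -0.51 (-0.76 to -0.27), unlike the -0.06 from clusters, and it was -0.20 without cluster 6. Those of Smad6, 0.30 (0.13 to 0.46), and Smad7, 0.18 (0.04 to 0.33), also excluded 0 here, and that of Acvrl1, 0.16 (-0.18 to 0.51), did not. Id2 was highest at the portal end in both, at 461 and 251 CPM. Median UMIs per cell ran from 6060.0 to 7234.5 over the control groups and from 8741 to 11752 over the cirrhosis groups.

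**Figure D2:**
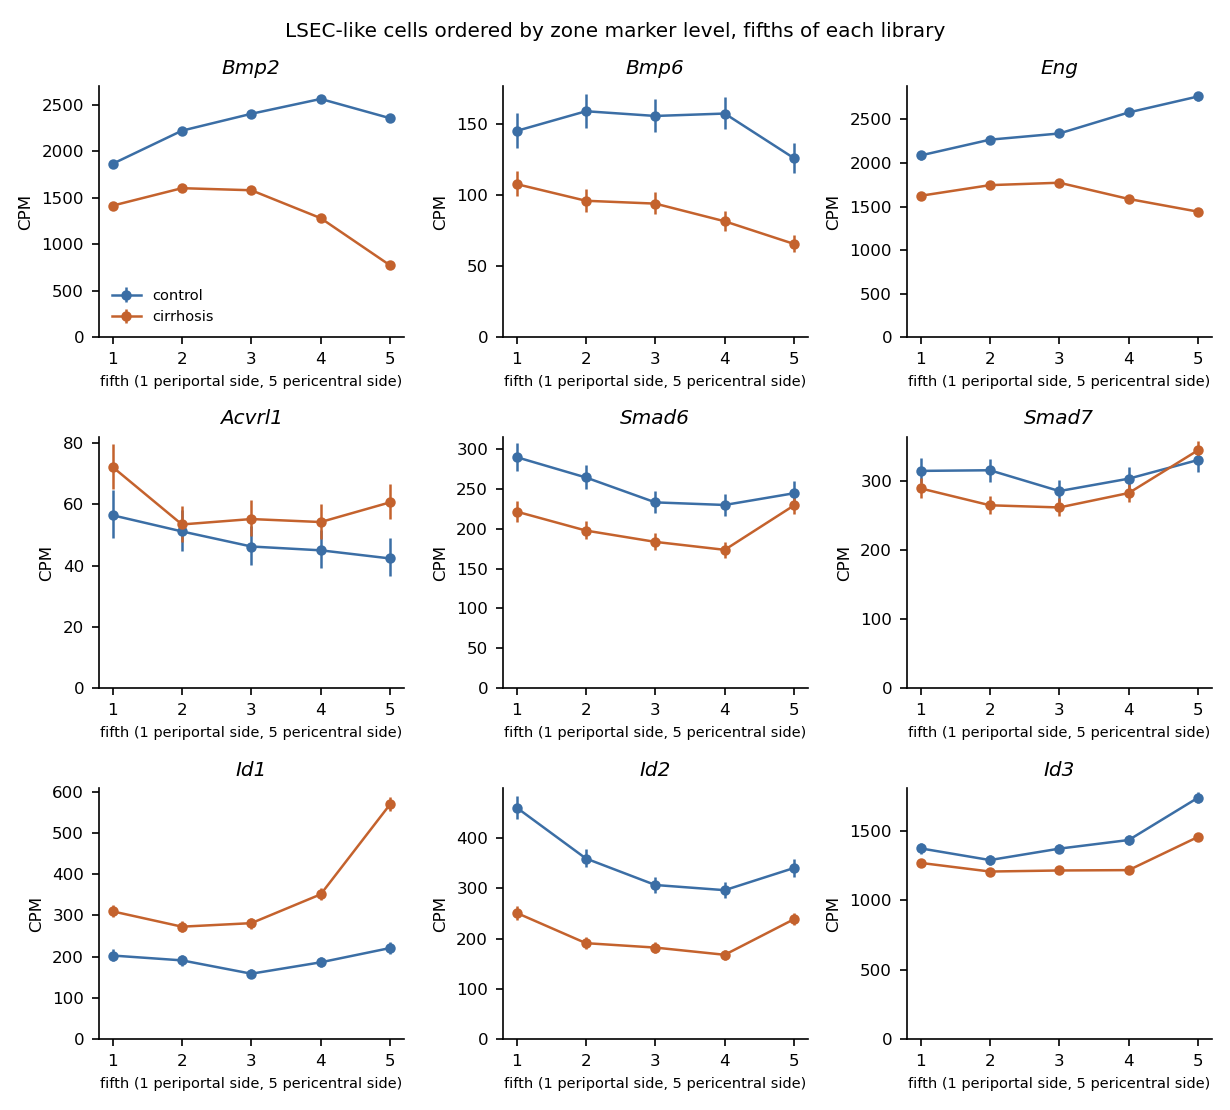
CPM of each gene (vertical axis, from 0) in 5 equal groups of the LSEC-like cells of each library ordered by zone marker level (horizontal axis, 1 at the periportal side, 5 at the pericentral side); points are sums over the cells of a group and bars the 95% Poisson interval. Bmp2 and Eng separate toward the pericentral side, and Id1 reaches 569 CPM in the last cirrhosis group, of which 47.3% of cells are cluster 6.

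Large-vessel cells differed from LSEC-like cells in the same genes. Acvrl1 was 2.46-fold higher in large-vessel than in LSEC-like cells in both libraries. Id1 was 3.70-fold higher in control and 1.87-fold higher in cirrhosis, and Id2 was 2.03-fold and 1.15-fold higher. Bmp2 was 2.39-fold lower in large-vessel cells in control and 2.83-fold lower in cirrhosis, Bmp6 was 2.77-fold and 2.96-fold lower, and Eng was 1.85-fold and 1.87-fold lower. Of the 9 genes, 3 were at least 1.5-fold higher in large-vessel cells in control (7.12% of all genes) and 2 in cirrhosis (6.23%), and 3 were lower in each (8.67% and 7.32%). The ligand genes and Eng were thus higher in LSEC-like than in large-vessel cells in both libraries, and Acvrl1 and Id1 were higher in the vessels. Eng was not confined to LSEC-like cells, at 1307 CPM in control and 868 CPM in cirrhosis large-vessel cells. Id2 was higher in the vessels in control. In cirrhosis its 236 CPM there lay with the periportal 255 and pericentral 251 CPM, and above the intermediate 182 CPM. Over large-vessel cells and the 3 zones, the order of Id1 in control was large-vessel, pericentral, periportal and intermediate, with pericentral and periportal intervals that overlapped. The order was the same in cirrhosis, where the large-vessel and pericentral intervals overlapped. Lymphatic endothelial-like cells, 64 in cirrhosis and 2 in control, had 447 CPM of Id1, 125 CPM of Acvrl1, 100.3 CPM of Bmp2 and 573 CPM of Eng in cirrhosis.

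Immediate-early transcripts, which rise during cell isolation, differed between the libraries. In cirrhosis LSEC-like cells 13 of 16 such genes were at least 1.5-fold lower, against 5.74% of all genes. Id1 was therefore also read within ranges of the immediate-early share of each cell. Under 0.5%, Id1 was 117 CPM in 797 control cells and 259 CPM in 2013 cirrhosis cells (log2 ratio 1.15, 1.01 to 1.29). Between 0.5% and 1% it was 161 and 491 CPM, and between 1% and 2% it was 188 and 779 CPM. Id1 was higher with a larger share in both libraries, and the cirrhosis level was above the control level in each range. The same ranges gave Bmp2 log2 ratios of -0.62, -0.95 and -1.28, and Eng ratios of -0.54, -0.69 and -0.84. Id2 ratios were -0.74, -0.66 and -0.64. Only 5 cirrhosis cells had a share of 2% or more, against 957 control cells. The ranges also differed in zone: 18 of the 249 control and 161 of the 530 cirrhosis pericentral cells lay under 0.5%. The cirrhosis pericentral cells were mostly cluster 6, where Id1 was 699 and Bmp2 484 CPM in cirrhosis. The part of zone and of cluster 6 in the values by range was not tested.

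**Figure D3:**
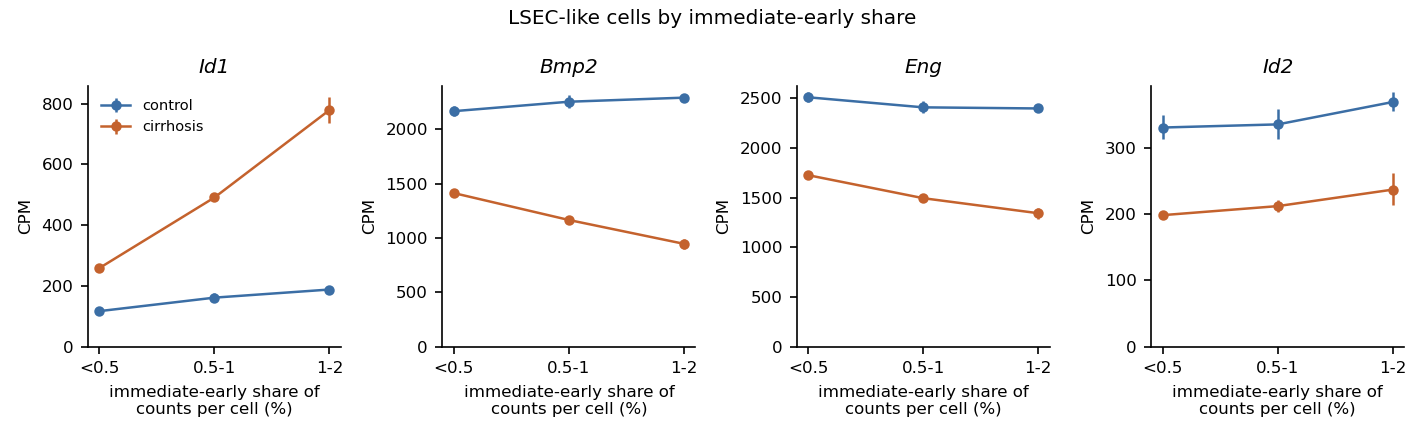
CPM (vertical axis, from 0) of Id1, Bmp2, Eng and Id2 in LSEC-like cells grouped by the share of counts from immediate-early genes (horizontal axis, %); points are sums over cells of a library and bars the 95% Poisson interval. Id1 is higher in cirrhosis in each of the 3 ranges shown, and Bmp2, Eng and Id2 are lower.

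The share of cells with a UMI was compared after thinning each cell to 3000 UMIs, which left out 217 control and 114 cirrhosis LSEC-like cells. Bmp2 was found in 98.6% of control cells (exact 95% interval 98.1% to 99%) and 91.4% of cirrhosis cells (90.3% to 92.4%), and unthinned in 99.3% and 97.8%. Bmp6 was found in 34.6% and 22% (unthinned 59.6% and 50.6%). Among T or NK cell-like cells, which should make neither ligand, the shares were 28.4% and 12.6% for Bmp2 and 8% and 2.77% for Bmp6. Median UMIs were 6885 and 6007 in those cells, against 6940.0 and 9967.5 in LSEC-like cells.

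Of the other genes, Id1 was found in 33.5% of control and 50.1% of cirrhosis LSEC-like cells (unthinned 51.5% and 74.6%), against 7.27% and 7.51% of T or NK cell-like cells. Id2 was found in 53.6% and 39.5% of LSEC-like cells (unthinned 74.1% and 69%) and Eng in 99.7% and 98% (unthinned 99.7% and 99.5%). Acvrl1 was found in 13.7% and 15.8% (unthinned 29% and 42%), against 0.727% and 1.58%. The shares had the directions of the CPM values. Neither ligand gene was found in 1.16% of control cells (0.789% to 1.64%) and in 7.16% of cirrhosis cells (6.26% to 8.14%), and both were found in 34.3% and 20.5%. Across cells, the Pearson correlation of Bmp2 with Id1 was -0.08 in control (2673 cells) and -0.19 in cirrhosis (2990 cells), and that of Smad6 with Smad7 was 0.22 and 0.15. These counts are sparse and weak correlations are no finding.

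Outside the endothelium, Bmp2, Bmp6 and Eng were present in each class, at levels that went with the LSEC markers of that class. In T or NK cell-like cells the LSEC markers were at 25% of their LSEC-like share in control and 14.9% in cirrhosis. Scaling the LSEC-like Bmp2 level by that share gives 575 and 194 CPM, and the measured levels were 491 and 173 CPM. In cholangiocyte-like cells the scaled Bmp2 levels were 809 and 387 CPM and the measured ones 875 and 358 CPM. Over 15 class and library sums, measured over scaled levels ran from 0.431 to 1.12 for Bmp2 and from 0.519 to 1.2 for Eng, with the lowest values in neutrophil-like cells. Bmp2 and Eng thus followed the LSEC markers in these classes, and free RNA and barcodes that also hold endothelial transcripts cannot be told apart here, so the levels are read as background. Bmp6 ran from 0.632 to 1.98, highest in cirrhosis cholangiocyte-like cells at 51.4 CPM.

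Past the 1.5-fold line between libraries, T or NK cell-like cells had 1 of 8 measured genes higher, Id1 (4.56% of all genes), and 4 lower, Bmp2, Bmp6, Eng and Id2 (10.2%). Cholangiocyte-like cells had 1 of 9 higher, Id1 (5.44%), and 2 lower, Bmp2 and Eng (6.74%).

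The Id genes, Smad7 and Acvrl1 were above that background in some classes. Smad7 was 146 CPM in control and 167 CPM in cirrhosis T or NK cell-like cells, against scaled levels of 77.3 and 43.2 CPM. Id2 was 1106 CPM in control and 706 CPM in cirrhosis T or NK cell-like cells, against scaled levels of 87 and 30.6 CPM. Id2 in cholangiocyte-like cells, the bile duct lining, was 1006 and 1133 CPM, against 122 and 60.9 CPM. Id1 in cholangiocyte-like cells was 232 CPM in control and 489 CPM in cirrhosis (log2 ratio 1.07, 0.93 to 1.22), against 67.1 and 109 CPM. The higher Id1 level was thus also found in bile duct cells, while Id2 there lacked the lower level of the endothelium.

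In macrophage-like cells of the control library (94 cells), Acvrl1 was 101 CPM, Id1 283 CPM, Id2 1156 CPM and Id3 1210.1 CPM, against scaled levels of 9.34, 37.2, 67.8 and 281 CPM. The cirrhosis library had only 33 macrophage-like cells, with 104 CPM of Acvrl1, 92.9 of Id1, 379.6 of Id2 and 661 of Id3. An unnamed cluster led by Gpnmb, a lysosomal glycoprotein gene, had 68 and 638 cells, with Acvrl1 at 55.1 and 69.5 CPM and Id2 at 386 and 463 CPM. None of the 9 genes was 1.5-fold higher there (10.4% of all genes) and 4 were lower (23.3%), Bmp2, Bmp6, Eng and Smad6. All genes in that cluster had a median log2 ratio of -0.15, and relative to it the log2 ratio was 0.48 for Acvrl1 and 0.41 for Id2. Before that subtraction the Acvrl1 interval in this cluster included no difference.

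Hepatocyte-like barcodes (191 and 1234) had median UMIs of 1158 and 2064, and the median log2 ratio of all their genes was -0.33. Id1 was 57.7 CPM in control, from 24 UMIs, and 84.2 CPM in cirrhosis (log2 ratio 0.55, -0.05 to 1.21), and Bmp6 was 21.6 and 12 CPM. The Id1 interval included no difference, and relative to the median its log2 ratio was 0.87. B cell-like cells (62 and 134) had a median log2 ratio of all genes of 0.76, and their ratios are not read further.

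**Figure D4:**
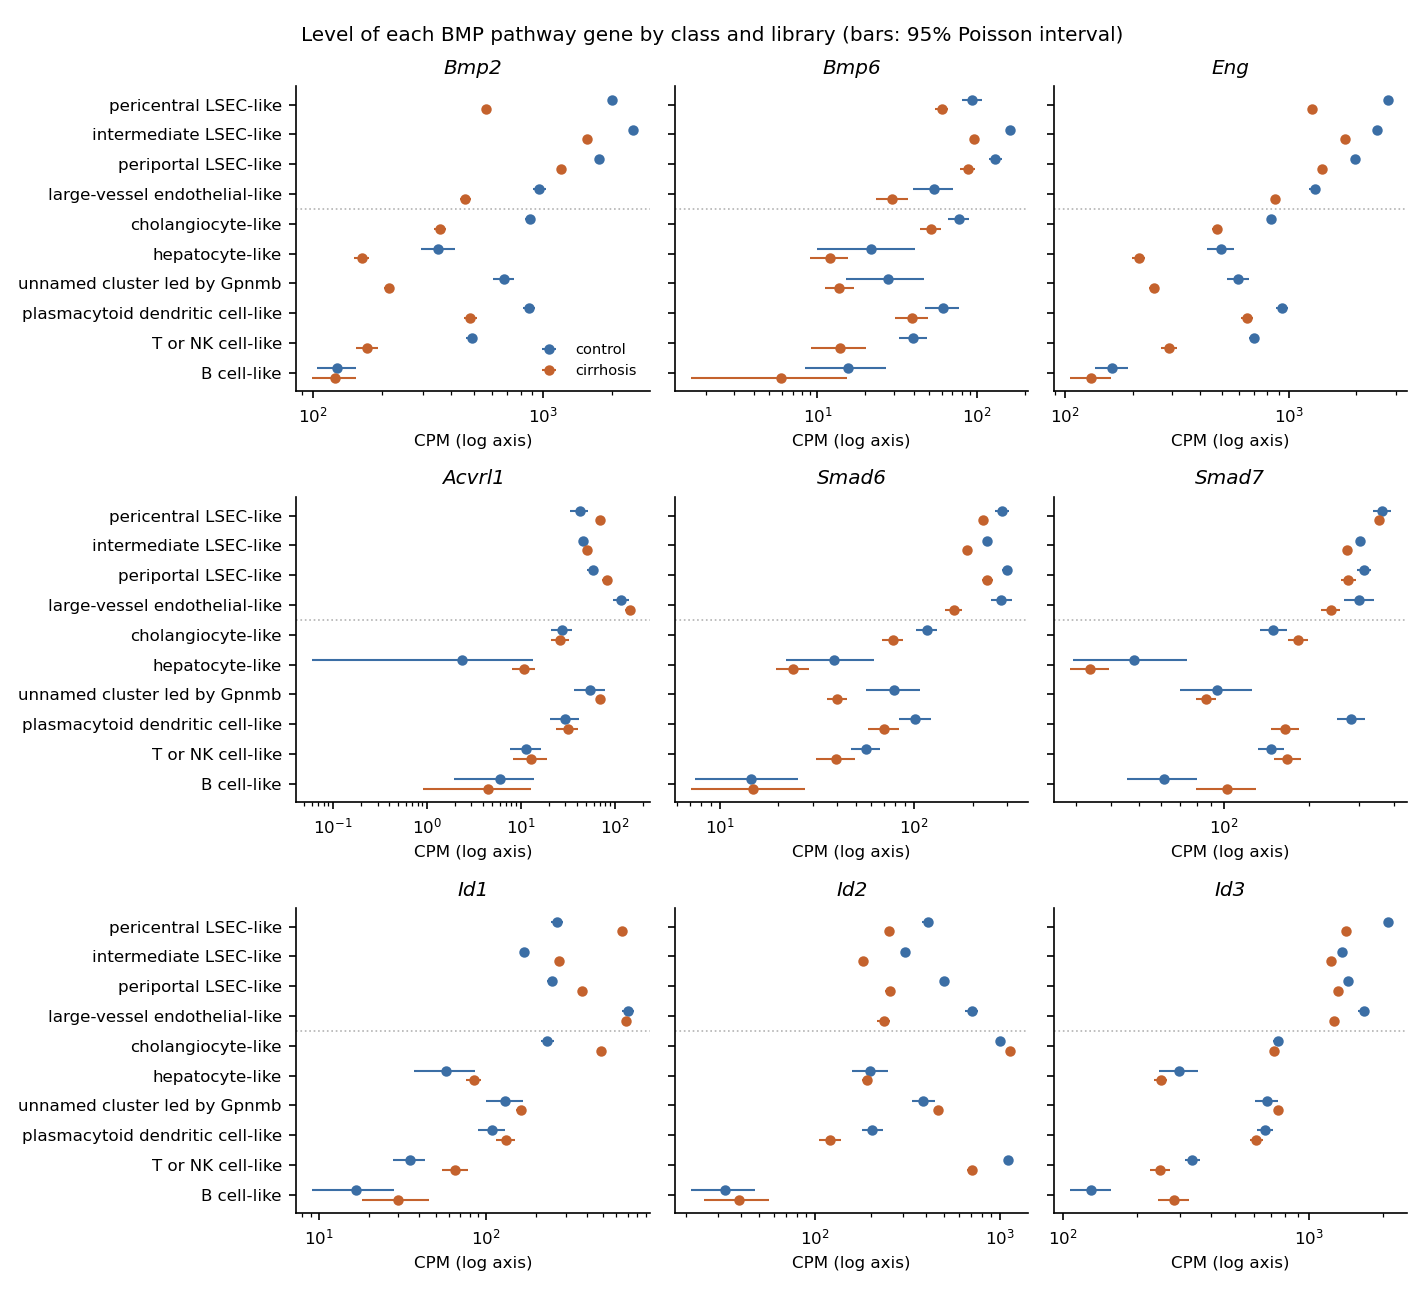
CPM (horizontal log axis) of each gene in 10 classes of at least 50 cells per library, control in blue and cirrhosis in orange, with 95% Poisson intervals; classes above the dotted line are endothelial. Bmp2, Bmp6 and Eng lie highest in LSEC-like cells, and Id2 reaches its highest levels in T or NK cell-like and cholangiocyte-like cells.

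**Figure D5:**
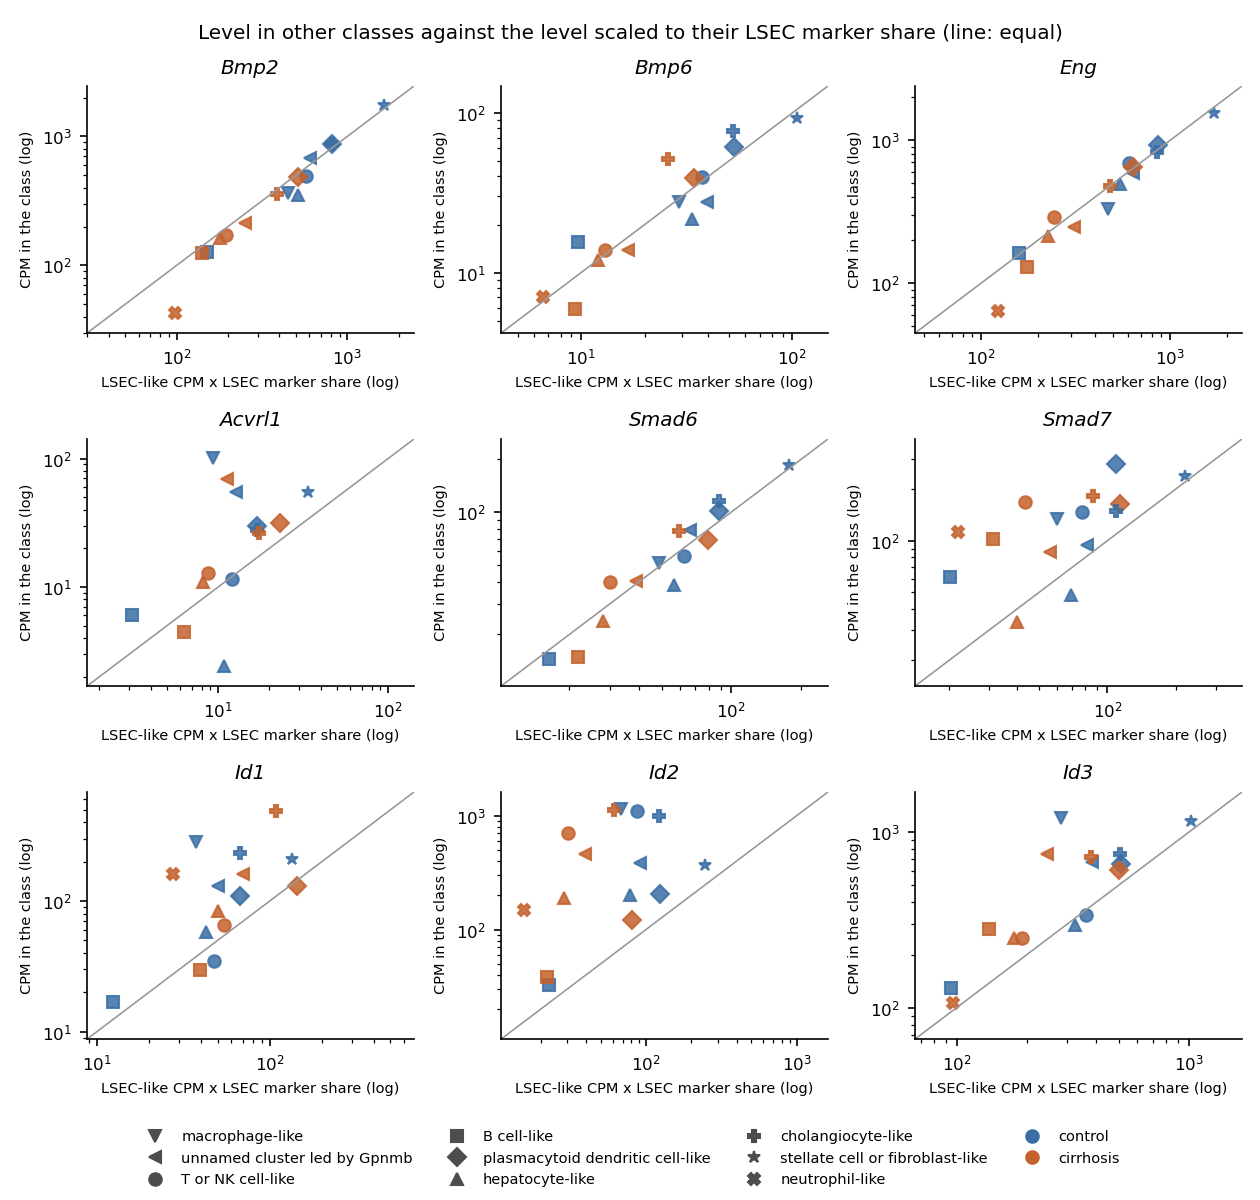
CPM of each gene in non-endothelial classes of at least 50 cells (vertical log axis) against the LSEC-like CPM of the same library scaled by the class's share of LSEC marker counts (horizontal log axis), with a line at equality; symbols are classes and values of 0 are not drawn. Bmp2 and Eng follow the line, and Id2 lies above it in every class.

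Genes with the most alike pattern were sought over 24 class and library sums, among 7297 genes, by Pearson correlation of log2(CPM + 10). For Bmp2 these were Dnase1l3 (0.99), Ehd3 (0.99), Oit3 (0.99), Nrp1 (0.99) and Fcgr2b (0.98), of which 4 are on the LSEC marker list. For Bmp6 they were Kdr (0.95), Cnksr3 (0.95), Nucb1 (0.95), Ralgapa2 (0.94) and Lhfpl2 (0.94). For Id1 they were Erf (0.94), Mapk3 (0.91), Tgm2 (0.91), Tax1bp3 (0.90) and F11r (0.90). The sums of a library share its depth and its free RNA.

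Other genes of the pathway were read in LSEC-like cells. Of 14 other ligand genes, 2 passed the level filter, Inhbb (86.3 and 122 CPM) and Tgfb1 (333 and 343 CPM), and neither was past 1.5-fold. Tgfb2, below the filter in the mean, was 4.42 CPM in control and 34.1 CPM in cirrhosis, and 1.72 and 1.60 CPM without cluster 6. Of 13 other receptor genes in the table, 7 passed the filter and none was past 1.5-fold, with a median log2 ratio of -0.29, and the BMP type I receptor gene Acvr1 was 56.1 and 42.9 CPM. Of the 6 receptor Smad and Smad4 genes, 5 passed and none was past 1.5-fold, among them Smad1 at 129 and 104 CPM and Smad5 at 51 and 56.1 CPM. In the LSEC-like sum these other receptor and signal carrier genes thus differed less than Bmp2, Bmp6 and Id1. By class, 3 of 6 measured other receptor genes were at least 1.5-fold lower in pericentral cells (12.0% of all genes). Those cells were mostly cluster 7 in control and mostly cluster 6 in cirrhosis, and the count was not read within the clusters. Among intermediate (4.98%) and periportal cells (5.28%), 0 of 7 were lower by that much. In large-vessel cells 2 of 7 were (9.24%).

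Of 17 inhibitor genes, 7 passed the filter, 3 were at least 1.5-fold higher (5.14% of all genes) and 1 was lower (5.74%). By zone, 1 of 7 was higher in intermediate (4.2%) and 1 of 7 in periportal cells (4.46%). Pericentral cells, mostly cluster 6 in cirrhosis, had 5 of 10 higher (9.93%). In each zone 1 was lower (4.98%, 5.28% and 12.0%). These counts were not read without cluster 6. Bmper, a secreted BMP-binding protein gene, was 19.2 CPM in control and 51.8 CPM in cirrhosis. Bambi, a pseudoreceptor gene that is itself BMP-responsive, was 53.6 and 20 CPM. Fkbp1a, which binds type I receptors, was 770.1 and 1162 CPM. At 1.51-fold it lay just inside the line, and it was 1.44-fold higher without cluster 6. Fstl1, a follistatin-like secreted protein gene below the filter in the mean, was 3.31 and 31.8 CPM, and 1.16 and 8.08 CPM without cluster 6. Among 14 other BMP-responsive genes, Gja4 was 278 and 398 CPM, Id4 was 292 and 252 CPM and Msx2 was 2.21 and 26 CPM. Gja4 and Id4 passed the filter and neither was past 1.5-fold. The 3 E protein genes that ID proteins bind, Tcf3, Tcf4 and Tcf12, were at most 1.16-fold apart between the libraries.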

How the data were processed

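Each library was a 10x 3' v3 single-cell library aligned to mm10 with Cell Ranger, per the submitters' processing notes. For the Cell Ranger version, annotation, strand setting and barcode filter, no source used here gives a value. The authors deposited whole-number UMI counts per gene and barcode, at least 500 UMIs per barcode, which were used as deposited. The 9 genes and all gene lists were chosen with earlier results of these data known.

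Barcodes with under 500 UMIs or 300 genes, over 20% mitochondrial or over 5% erythroid counts were removed, 475 control and 666 cirrhosis, and then 214 and 470 predicted doublets, their expected share set in proportion to the number of barcodes. Cells were scaled to 10000, and 2000 variable genes, 30 principal components and 20 neighbours went into Leiden clustering at resolution 0.5, and again at 1.0 within endothelial cells with each library standardized by itself. Clusters were named from fixed markers. The resolutions and naming thresholds (66% of markers, a log2 fold of 0.4, 0.5% of counts from other types) were set after seeing the data, and 21.3% of control and 25.2% of cirrhosis cells lay outside named classes.

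Counts were summed per class and library and scaled to CPM. Classes compared needed 50 cells per library, and genes a mean of 20 CPM. With 1 library of 3 pooled mice per group there was no test. Intervals are exact 95% Poisson for levels, conditional binomial for ratios and Clopper-Pearson for shares. They cover counting error only. On simulated counts for the LSEC-like comparison (6904 genes), the ratio interval held the true value for 95.0% of 100 genes changed 2-fold, 98.0% of 100 changed 4-fold and 94.8% of 6704 unchanged. These counts were Poisson draws, the model the interval assumes, so they check the calculation and not the spread between cells, mice or libraries.

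All 9 genes are given in the endothelial classes, and in other classes those past 1.5-fold or above the scaled endothelial level are named. Of each other pathway list, up to 4 genes with the largest LSEC-like log2 ratio among those at 20 CPM or more in either library are named. Genes alike in pattern were the 5 with the highest correlation for Bmp2, Bmp6 and Id1. Alternatives covered scaling, cell filter, doublets, clustering genes and resolutions, weighting of cells and zones, cells of cluster 6, and immediate-early share. Tools were Python 3.11.15, numpy 2.4.6, pandas 2.3.3, scipy 1.17.1, scikit-learn 1.9.0, scanpy 1.11.5, igraph 0.11.9, leidenalg 0.10.2 and matplotlib 3.10.9.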

Additional observations from a re-analysis of the deposited data

Results flagged for a closer look

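Directions differed between classes or libraries for 5 genes, with no test of any of these differences. Id2 had a log2 ratio of cirrhosis over control of 0.17 in cholangiocyte-like cells and 0.26 in the cluster led by Gpnmb, against -0.76 in LSEC-like cells; the median of all genes in the Gpnmb cluster was -0.15. Smad7 was at 0.29 in cholangiocyte-like cells and at 0.74 in B cell-like cells, against -0.09 in LSEC-like cells. Id3 was at 1.12 in B cell-like cells, against -0.17. The median of all genes in B cell-like cells was 0.76, and relative to it Smad7 stood at -0.02 and Id3 at 0.36. The log2 ratio of pericentral over periportal cells was 0.19 in control and -1.08 in cirrhosis for Bmp2, and 0.50 in control and -0.15 in cirrhosis for Eng. With pericentral cluster 7 alone these were 0.33 and -0.41 for Bmp2 and 0.53 and 0.14 for Eng, so that the Eng directions no longer differed. Each difference was not tested, since each group had 1 library.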

How the results depend on the processing

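In LSEC-like cells, 13 alternatives were run, of which both other second-step resolutions and leaving out cluster 6 were added after seeing the data. The number of genes 1.5-fold higher was 1 in each, and the number lower was 3 or 4. All 9 genes kept their sign in the 13: Bmp2 ranged from -0.90 to -0.62, Bmp6 from -0.84 to -0.66, Eng from -0.69 to -0.50, Id2 from -0.84 to -0.73 and Id1 from 0.66 to 1.15. Between zones, 5 alternatives gave a value, 4 of them added after seeing the data. The number of genes 1.5-fold apart between pericentral and periportal cells, 0 in control and 2 in cirrhosis, became 2 and 0 at the higher second-step resolution, 1 and 1 with pericentral cluster 7 alone, 0 and 3 by marker level, and 0 and 0 by marker level without cluster 6. Cluster 7 alone turned the Id2 difference of zone ratios from 0.27 to -0.0482, and the Eng ratio in cirrhosis from -0.15 to 0.14; the latter was 0.07 at the higher resolution and 0.10 by marker level without cluster 6. The Bmp2 difference ranged from -1.24 to -0.46, that of Eng from -0.60 to -0.32 and that of Id1 from 0.14 to 0.75. The cause was not tested. Zone values were not obtained with the 9 genes left out of clustering, with cells of an immediate-early share under 0.5%, or at the lower second-step resolution, because a zone then had under 50 cells or was not found. No paired analysis was possible because each group had 1 library of pooled mice. Depth limits genes of few UMIs, such as Acvrl1 and Bmp6 in small classes.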

Other observations

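Endothelial BMP2 and BMP6 induce hepcidin in hepatocytes, and hepcidin acts on the iron exporter ferroportin. Genes of iron handling were read in LSEC-like cells. Of 10 such genes, 6 passed the level filter, 2 were at least 1.5-fold higher (5.14% of all genes) and 1 was lower (5.74%). Slc40a1, the ferroportin gene, was 283 CPM in control and 157 CPM in cirrhosis. Hmox1, which releases iron from heme, was 34.0 and 64.3 CPM, and the ferritin genes Ftl1 and Fth1 were 1747 and 2690.0 CPM and 852 and 996 CPM. Without cluster 6, Ftl1 was 1.47-fold higher, under the 1.5-fold line.

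In hepatocyte-like barcodes, Hamp, the hepcidin gene, was 361 CPM in control, from 150 UMIs, and 2454 CPM in cirrhosis, from 11243 UMIs (log2 ratio 2.77, 2.53 to 3.01). Hamp was chosen after its values were seen. Alb was 10491 and 27696 CPM in the same barcodes, their median UMIs were 1158 and 2064.5, and the median log2 ratio of all genes there was -0.33. The part of these differences in the Hamp value was not tested. Bmp2 and Bmp6, its endothelial inducers, were lower in cirrhosis LSEC-like cells.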
